A study of Mus musculus with 19 samples.

Results

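Keratin and cornified envelope genes of the A223 tumour cells were described from the positions at which these cells differed from the mouse reference. Members were all genes of the variant table whose symbol starts with Krt, Lce, Sprr or Serpinb, together with Ivl, Hrnr, Rptn and Tchh. Flg, which the rule also names, was not analysed here. The rule found 100 of 18200 gene symbols and 873 of 564674 positions. Of these positions, 714 lay in or beside 1 of the 100 genes and 159 lay between genes and carried a paired label. Symbols that start with Krt also took in 34 keratin-associated proteins and the genes Krtcap3 and Krtdap, whose products are not keratins.

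A223 is a mouse squamous cell carcinoma line that the labels call C57BL/6-derived. The cells were grown in vitro with no treatment named, and the study injected the same tumour into C57BL/6J mice to follow its CD8 T cells. A polyadenylated RNA library and an exome library of the cultured cells were read, and a single table gives a genotype in each and the number of RNA reads at each position. With 1 library of each kind there was no replicate, so no test was made. Intervals below are exact Clopper-Pearson 95% intervals that cover counting error only. Read totals of the 2 libraries were not used here.

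Keratins are intermediate filament proteins, and each filament is built from a type I and a type II keratin. Stratified epidermis uses one pair of keratins in its dividing basal layer and another in the layers above, simple epithelia use Krt8 with Krt18, and hair and its inner root sheath use further sets. As epidermal cells mature, involucrin, small proline-rich proteins and late cornified envelope proteins are cross-linked into a protein shell, the cornified envelope. Clade B serpins are intracellular protease inhibitors, several of which are made in epidermis.

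At exonic positions with an exome genotype, which are listed whether or not RNA covered them, RNA reads over these genes were few. Of 321 such positions, 301 had 0 RNA reads, 17 had 1 to 19 reads and 3 had 20 or more. All of the 3 deep positions were in Serpinb8, a clade B serpin. Outside Serpinb8, the highest value was 7 reads, in Krt10. The median was 0 reads among the members and also 0 over all genes of the table. Of 72 member genes with such a position, 1 (1.39%, interval 0.0352 to 7.5) reached 20 reads at its deepest one, against 36.6% of all 6045 genes. At least 1 read was found in 8 of the 72 genes (11.1%, interval 4.92 to 20.7), against 55.8% of all genes. By position, 0.935% of the member positions (interval 0.193 to 2.71) had 20 or more reads, against 26.3% of all 33989. A position with 0 reads allows an expected depth of up to 3 reads there, so absence of the RNA was not shown.

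**Figure D1:**
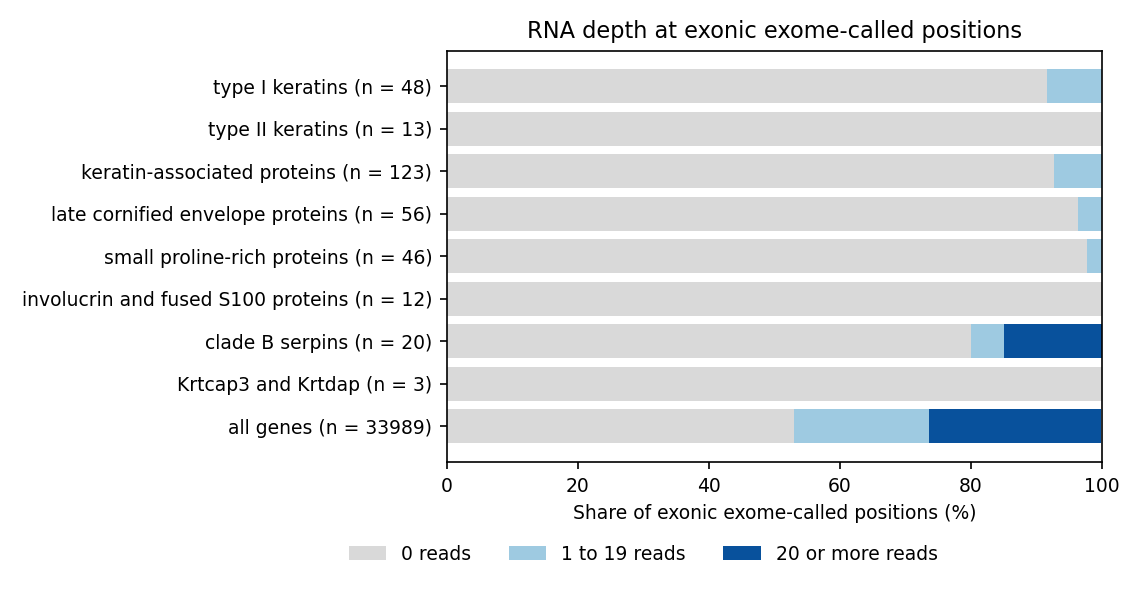
RNA depth at exonic positions with an exome genotype, as the share (%) with 0, 1 to 19, and 20 or more reads, for each family of members and, at the bottom, for all genes of the table. Bars give shares of the number of positions printed beside each name. Of the 20 clade B serpin positions, 3 had 20 or more reads, the other families had none at that depth, and all genes had 26.3%.

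The RNA was also set against marker lists for the cell types that such a culture could hold. Among suprabasal keratinocyte markers, Krt10 had 0 to 7 reads and Ivl and Lor had 0 reads at exonic exome positions, while Krt1, Krt2 and Krt77 were not analysed here. Of the basal markers, Col17a1 had 0 to 5 reads over 14 positions, and Itgb4, a hemidesmosome integrin, had up to 139 reads at exonic positions called in RNA. Krt5, Krt14 and Trp63, the usual basal markers, and the activated keratins Krt6a, Krt6b and Krt17 were not analysed here. All 4 immune genes with an exonic exome position had 0 reads there. Csf1r, an immune gene without one, had 12 reads at its single called position, outside exons. Of the fibroblast markers, Col3a1 had 10 reads at its single exonic exome position. The fibrillar collagen genes Col1a1 and Col1a2 had up to 707 and 641 reads at exonic positions called in RNA. Positions called in RNA need reads to be listed, so these values and that of Itgb4 are not comparable with those at exome positions. The label of a squamous carcinoma was thus checked at few defining genes, and the part of other cell types in these values was not tested.

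Of the 19 type I keratin genes, 18 had an exome call in or beside them, 94 in all, and 48 of these calls were exonic, in 11 genes. Another 5 exome calls lay between type I keratin genes. Krt10, the type I keratin of the suprabasal epidermis, was the only keratin with RNA reads at exonic exome positions. Its 8 exonic positions, in order along chromosome 11, had 0, 5, 7, 3, 2, 0, 0 and 0 reads. Thus 4 of 8 had reads, and its 7 intronic positions had up to 5 reads, 6 of them with at least 1. At the deepest, chr11:99387591, a synonymous change in exon 3 was heterozygous in RNA and exome. Both protein-changing calls of Krt10, p.Leu4Arg and p.Gly21dup, were heterozygous in the exome and had 0 RNA reads.

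Of the remaining epidermal and mucosal keratins with calls, only Krt13 had exonic exome positions. The others, Krt15, Krt16, Krt24 and Krt78, had no such position at which RNA could be read. Krt13, the type I keratin of mucosal suprabasal cells, had 9 such positions at 0 reads, among them p.Arg435Gln and an in-frame deletion that runs across a splice donor, p.Thr290_Lys291del. Krt13 also had a deletion from the donor to the acceptor of intron 5 and 2 insertions at the acceptor of intron 2. All were heterozygous in the exome, at 0 reads, and the origin of these splice-site calls was not tested. Krt15, a basal and hair follicle stem cell keratin, had 2 homozygous exome calls outside exons, with up to 7 RNA reads. Of the keratins found in simple epithelia, Krt19, Krt20 and Krt23 had 5 exonic exome positions together, all at 0 reads. Krt19 carried 2 heterozygous insertion calls on adjacent bases, chr11:100140918 and chr11:100140919. They were annotated at its last codons, as p.Ala402dup and p.Ile403fs in a protein of 403 residues. The origin of the inserted bases was not tested. Krt7, a glandular keratin, had 21 heterozygous exome calls, all downstream of the gene between chr15:101432900 and chr15:101433080 and all at 0 reads.

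Hair and inner root sheath keratins were listed only through exome calls. The 3 inner root sheath genes Krt26, Krt27 and Krt28 had 16 exome calls, of which 14 were heterozygous. The 9 hair keratin genes had 52, of which 50 were heterozygous. At exonic positions these groups had 8 and 31 calls, and none of them had an RNA read. Krt32 had the most calls of the hair keratins, 19, and Krt31 the most exonic ones, 10. Protein changes were called in Krt31 (p.Cys291Ser), Krt35 (p.Ala429Val), Krt36 (p.Thr119Ala) and Krt83 (p.His109Tyr). In Krt83, 7 calls fell between chr15:101438441 and chr15:101438564 in exon 1, all heterozygous.

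Depth is given only at called positions, and keratins such as Krt5 and Krt14 were not analysed here. Among the keratins that were, only Krt8 and Krt18, the filament pair of simple epithelia, had 20 or more RNA reads inside the gene. Neither had an exonic exome call, so they do not enter the counts above. Their reads were seen at calls made in RNA alone, which need RNA reads to be listed. Krt18 had 17 such calls, all in introns, at depths of 6 to 74 reads (median 33). All 17 lay within 52 bases of an exon edge, 13 were insertions or deletions and 15 were heterozygous. In intron 3, the depth was 74 reads at 2 bases from the exon edge, 33 reads at 21 bases and 18 reads at 52 bases, so depth was lower farther from the exon. In intron 2, it was 43, 35 and 6 reads at 3, 5 and 7 bases. The single exome call of Krt18, an intronic deletion, had 2 reads.

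Krt8 had 3 such calls at 56, 24 and 17 reads, all within 3 bases of an exon edge. The deepest, at chr15:101997851, was called at the second base of the donor site of intron 7, homozygous in RNA with no exome genotype. Between Krt8 and Krt18, 2 A-to-G calls in RNA had 8 and 7 reads. The inserted bases are shown for 2 of these edge calls, one of Krt18 and one of Serpinb6b, a clade B serpin, because both add 13 bases within 5 bases of a splice donor. Letters are those of the genome's plus strand, and capitals mark the inserted bases.
Krt18 intron 2, chr15:102029553, 35 reads: gACAGAACTAGCCA
Serpinb6b intron 2, chr13:32968675, 7 reads: gCACTGTCTTTGGA
All 5 RNA-only calls of Serpinb6b lay within 5 bases of an exon edge, at 4 to 7 reads.

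**Figure D2:**
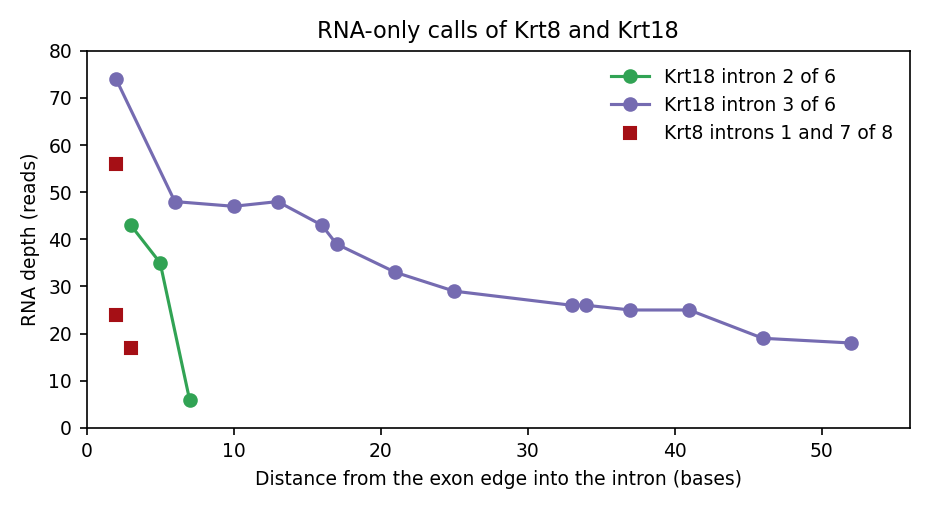
RNA depth (reads) at intronic calls made in RNA alone, against the distance from the exon edge (bases), for Krt18 introns 2 and 3 and for Krt8. Points are single positions, and lines join positions of the same intron. In Krt18 intron 3, the depth was 74 reads at 2 bases and 18 reads at 52 bases.

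The cornified envelope precursors had few or no reads. Involucrin, repetin, hornerin and trichohyalin (Ivl, Rptn, Hrnr and Tchh) had 12 exonic exome positions, all at 0 reads, which with a limit of 3 counts allows a share of covered positions of up to 25.0%. Of their 10 coding calls, 9 changed the protein. They included p.Lys423Glu in Ivl, p.Thr1042Ile, p.Ser1048Asn and p.Gly1120Arg in Hrnr, p.Val883Gly in Rptn, and p.Ile54Val and p.His959Arg in Tchh. All 9 were heterozygous. Of the 6 exome calls of Ivl, 3 were homozygous.

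Small proline-rich proteins, the short cross-bridging proteins of the envelope, had 103 exome calls in or beside 10 genes, 3 more between genes, and no RNA genotype at all. Of their 46 exonic positions, 1 had reads, p.Tyr18Cys of Sprr2k, with 2. Sprr2e with 33 calls and Sprr2d with 29 had the most exome calls of all members. All 33 Sprr2e calls and 28 of the 29 Sprr2d calls were heterozygous. Their coding calls met at the same residue: Sprr2d was called p.Lys31Gln and Sprr2e p.Gln31Lys.

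The Sprr2e and Sprr2d promoters are shown because heterozygous calls in one carried the letters of the other. In RefSeq windows of GRCm38.p6 that start upstream of each gene, 282 bases aligned and 24 differed, an identity of 91.5%. Of 8 heterozygous substitutions in the Sprr2e window, 6 called the base that Sprr2d holds there. In the Sprr2d window it was 1 of 4. Below, capitals mark the positions called heterozygous in Sprr2e and the letters of Sprr2d that align with them, all on the plus strand, 5′ to 3′.
Sprr2e, chr3:92351961-92352000: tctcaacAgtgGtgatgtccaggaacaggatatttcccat
Sprr2d, chr3:92338958-92338997: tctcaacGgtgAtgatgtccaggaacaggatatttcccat
Sprr2e, chr3:92352021-92352120: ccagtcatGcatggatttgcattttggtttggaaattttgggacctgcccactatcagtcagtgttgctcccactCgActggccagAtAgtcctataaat
Sprr2d, chr3:92339018-92339117: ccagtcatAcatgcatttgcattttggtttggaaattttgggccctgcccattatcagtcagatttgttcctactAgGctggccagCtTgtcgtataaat
In these stretches, 6 of the 7 capitals of Sprr2d are the base called in Sprr2e. Over the 9 member windows that aligned with another member's over 100 or more bases, 17 of 28 aligned heterozygous substitutions carried the partner's base. These windows can run into the gene, so not all of these substitutions are upstream. Both in Krtap19-2 carried the base of Krtap19-1 and are coding, p.Ser8Ser and p.Ser8Tyr. Sprr2d with Sprr2e, and Krtap19-1 with Krtap19-2, are each other's partners and were counted from both sides. No share of matches for other promoters was computed, and whether reads of one copy were placed on the other was not tested.

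Late cornified envelope proteins, made in the outermost living layers, had 90 exome calls in or beside 14 of their 16 genes, of which 83 were heterozygous (92.2%, interval 84.6 to 96.8). All 12 exome calls under their labels between genes were homozygous. Lce1a2 had 27 calls, among them 13 exonic ones, and p.Gly147Asp was its only homozygous protein change. Of 56 exonic exome positions in the family, 2 had reads. These were synonymous changes of Lce1f at chr3:92719247 with 6 reads and Lce1h at chr3:92763490 with 5 reads. Both were called homozygous in RNA and heterozygous in the exome.

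Between Lce1d and Lce1k, most positions were called in RNA alone, as was so over the whole table. Only 2 of all 219 RNA-only calls under member labels were exonic. From chr3:92686054 to chr3:92806969, 199 of 234 positions were called in RNA alone, against 354850 of 564640 over the whole table. Of the 199, 98 were under member labels and 185 were homozygous. They had 2 to 568 reads with a median of 7, and the highest was 53 bases from the pseudogene Gm4202. Of the 35 exome calls in the same stretch, 30 were heterozygous. The interval between Lce1f and the label RP24-435G16.5 held 53 RNA calls at 2 to 15 reads, and that label itself held 101 more at 2 to 24 reads. The labels Lce1g and Lce1h had 40 calls in RNA alone, of which 1 was exonic, with 8 reads. Reads were therefore present at places across this stretch of chromosome 3. Exonic exome positions of the Lce1 genes had 6 reads at most. Calls in RNA alone need reads to be listed, so their depths are not comparable with those at exome positions.

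Keratin-associated proteins, which bind hair keratins, were the largest family, with 167 exome calls in or beside 34 genes and 74 between genes. Of their 123 exonic exome positions, 9 had reads, and the highest was 3, at p.Tyr185Cys of Krtap4-6. A second change in that gene, p.Ala2Val, had 1 read. They held 33 of the 90 protein-changing calls among members. Krtap19-1 alone had 8 in a protein of 87 residues, from p.Ser5Arg to p.Phe86Cys, with 2 frameshifts at residue 47. All of its exonic positions were at 0 reads. Changes were also called in Krtap1-3 (p.Cys65Tyr), Krtap11-1 (p.Ala81Val), Krtap13 (p.Arg53His) and Krtap16-3 (p.Gly17Ser), all heterozygous and at 0 reads.

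Clade B serpins held the deepest exonic positions, and nearly all of their exome calls were homozygous. Serpinb8 had 77 called positions, and its 3 exonic ones were covered by 55, 42 and 36 RNA reads. The first and the third changed the protein. The calls p.Ser20Gly at chr1:107597527 and p.Ala75Thr at chr1:107598954, in a protein of 374 residues, were homozygous in RNA and in the exome. They were the only protein-changing member calls with 20 or more reads. Its 53 intronic substitutions, of which 2 also had an exome genotype, were all homozygous at 2 to 21 reads with a median of 7, below each exonic value. At intron edges 5 RNA calls were heterozygous, and 5 exome calls upstream or downstream of the gene had 0 reads.

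Serpinb2, known as plasminogen activator inhibitor 2, had 25 exome calls, all homozygous, and 0 or 1 RNA read at each. Of these, 5 changed the protein, p.Ala55Thr, p.Ala239Glu, p.His258Tyr, p.Thr259Ile and p.Ser284Arg, all at 0 reads. Serpinb10, next to it, had a homozygous p.Ser63Phe at 0 reads. From chr1:107515408 in Serpinb2 to chr1:107613712 beside Serpinb8, all 41 exome calls of the table, whatever their label, were homozygous. In Serpinb3a, Serpinb3d and Serpinb7, before that stretch on chromosome 1, 2 of 4 calls were.

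**Figure D3:**
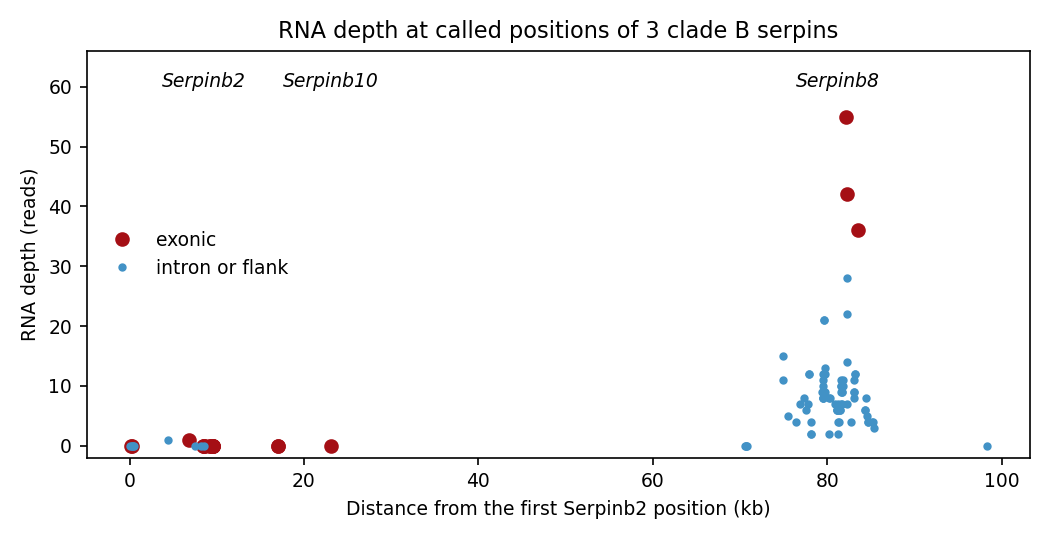
RNA depth (reads) at called positions of Serpinb2, Serpinb10 and Serpinb8 against the distance (kb) from the first Serpinb2 position. Exonic positions are large and red, and intronic or flanking ones small and blue. The 3 exonic Serpinb8 positions are at 36 to 55 reads, and every exonic Serpinb2 and Serpinb10 position is at 0 or 1.

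Exome genotypes outside the clade B serpins were mostly heterozygous. Of 654 member exome calls, 537 were heterozygous (82.1%, interval 79.0 to 85.0), against 40.1% of all 209790 exome calls. Without Serpinb2 and Serpinb8 it was 86.8%. By family, over calls in or beside genes, the share was 100% in type II keratins, 94.2% in small proline-rich proteins, 91.5% in type I keratins and 4.76% in clade B serpins. Of the calls in or beside keratin-associated protein genes, 152 of 167 were heterozygous. On chromosome 3, which holds the late envelope, proline-rich and involucrin genes, it was 86.5% in members and 53.1% in all other labels. On chromosome 11, which holds most type I keratins, it was 88.0% in members and 65.1% in other labels. On chromosomes 15 and 16 members stood at 100% and 88.4%, and other labels at 40.0% and 44.3%.

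The kind of position matters for these shares, since coding calls were more often heterozygous than calls between genes. Among coding calls, 92.1% were heterozygous in members and 62.7% in all genes. On chromosome 3 the coding shares were 96.3% in members and 82.8% elsewhere, and on chromosome 11 they were 100% in members and 92.3% elsewhere. Between genes, it was 62.4% of 101 calls under member labels and 18.5% of all 44074. On chromosome 1 the direction was opposite: 2 of 46 member calls (4.35%) were heterozygous, against 52.6% in other labels. Neighbouring calls of a gene are not independent of each other.

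**Figure D4:**
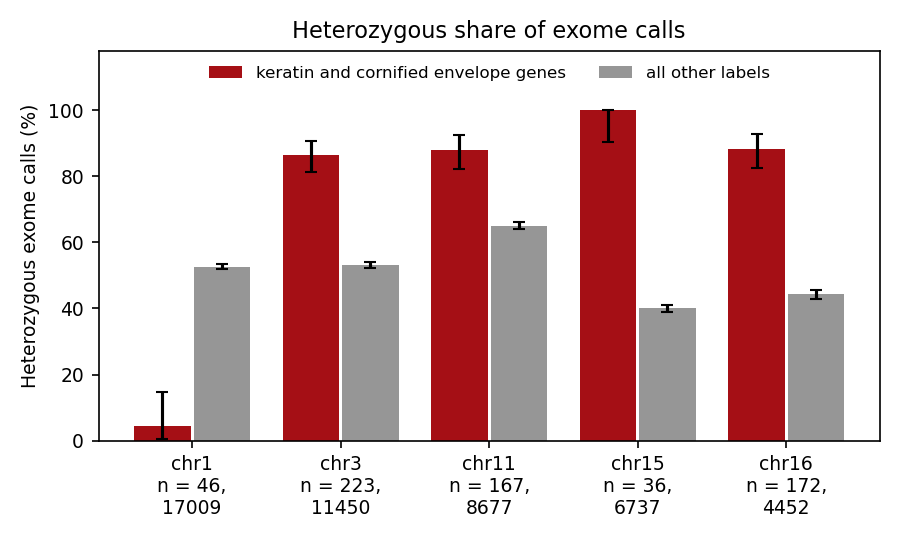
Share of exome calls that were heterozygous (%), for members (red) and all other labels (grey), on the 5 chromosomes with 30 or more member calls. Bars start at 0, error bars are exact 95% intervals for counting error, and numbers of calls are printed as members, then others. Members are above the other labels on chromosomes 3, 11, 15 and 16 and below them on chromosome 1.

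Protein-changing calls were spread over all families of the envelope and the filaments. Of 216 coding exome calls, 90 (41.7%, interval 35.0 to 48.5) changed the protein, against 40.6% of all coding exome calls. They were 69 missense, 17 in-frame and 4 frameshift calls in 43 genes, and 81 were heterozygous and 9 homozygous. By family the share was 90.0% of 10 calls in involucrin and its neighbours, 57.1% of 14 in clade B serpins, 50.8% of 65 in keratin-associated proteins, 39.1% of 46 in late envelope proteins and 20.9% of 43 in type I keratins. Of the 90 calls, 5 had any RNA read, and no protein-changing call of a member was made in RNA alone.

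The deepest RNA positions under member labels lay outside the named gene. In all, 47 member positions, in or out of exons, had 20 or more reads, under 9 labels, and 21 of them were nearest to another RefSeq gene. The 13 positions labelled upstream of Krtap31-2, at 39 to 1841 reads, were inside the pseudogene Gm11560. The 3 labelled downstream of Krt16, at 249, 247 and 180 reads, were inside the pseudogene Gm11598. The 3 labelled upstream of Lce1d, at 568, 220 and 20 reads, were in or within 158 bases of the pseudogene Gm4202, and 2 labelled Krtcap3 were inside Ift172. The 2 of Lce1g and 1 of Lce1h, at 20 to 31 reads, were 1260 to 3016 bases away from the gene. That leaves Serpinb8, Krt8 and Krt18 with 20 or more reads inside the gene itself. The depth under the labels Krt16 and Krtap31-2 is thus no reading of these genes.

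**Figure D5:**
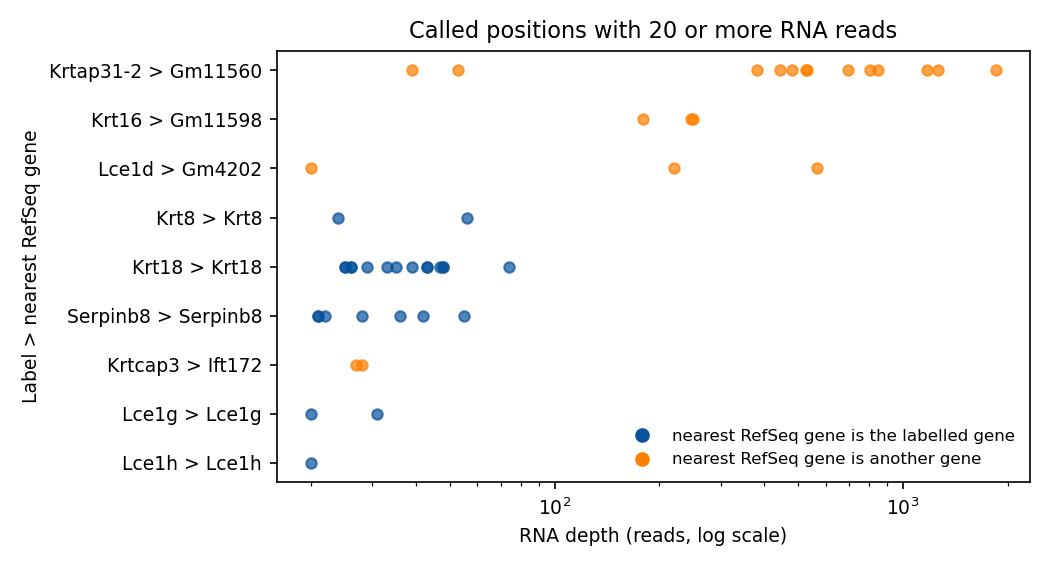
RNA depth (reads, log scale) of the 47 member positions with 20 or more reads, by label in the variant table and nearest RefSeq gene. Points are single positions, in blue where the nearest gene is the labelled one and in orange where it is another. The highest, 1841 reads, is under the label Krtap31-2 and inside Gm11560.

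Genotypes in RNA and exome could be compared at few member positions. At 20 or more reads, 6 positions had both, and 3 were unlike (interval of the share 11.8 to 88.2%), against 13.6% of all 10549 such positions, a value inside that interval. The 3 alike were the homozygous exonic positions of Serpinb8. The 3 unlike were homozygous in RNA and heterozygous in the exome, at 697 and 529 reads under the label Krtap31-2 and at 220 reads under Lce1d, all inside the pseudogenes named above. Another 7 positions under Krtap31-2 were heterozygous in the exome and had 380 to 1841 reads with no RNA genotype. At any depth, 7 of 17 member positions (41.2%, interval 18.4 to 67.1) were unlike, against 14.8% of all 38182 positions.

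Other genes of the epidermal programme were counted from a list of 65, none of them a member. Of 20 with an exonic exome position, 2 reached 20 reads and 9 had at least 1. At these positions the deepest was Jup, the desmosome and adherens junction protein plakoglobin, at 51 reads. The desmosomal cadherin Dsc2 followed at 22 and S100a7a at 13. The share of 2 in 20 is below the 36.6% of all genes, and the difference was not tested. In this list 11 of 20 genes had 0 reads at every exonic exome position, and 64 of 72 member genes did. With exonic positions called in RNA alone included, which need reads to be listed, 5 of 24 listed genes reached 20 reads. Itgb4 was then the deepest, at 139 reads.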

How the data were processed

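RNA and exome DNA of A223 cells were called by the authors with BWA and GATK, per the submitters' processing notes, with versions, caller settings and genome build not given in the sources used here. The deposited table gives, per the file headers, the RNA depth of each position as a raw read count, and deposited genotypes and annotated effects as text, of no numeric unit (other). Genotypes are the authors' calls, 0/1 for heterozygous and 1/1 for homozygous. The 2 deposited copies were identical, and 1 was used. There were 34 positions whose depth was given as 3 numbers, none a member, and they were left out. Columns of per-sample values left unused numbered 0. The reference letter equalled RefSeq GRCm38.p6 at 2803 of 2803 positions in promoter windows, so RefSeq sequences and neighbours of that build were used. Depth at a base depends on read length, alignment and copies, and mapping of reads from near-identical copies was not stated.

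Positions were counted by family, effect and genotype with Python 3.11.15, pandas 2.3.3 and SciPy 1.17.1, and promoters were aligned locally with Biopython 1.88. The main reading used exonic positions with an exome genotype, and a minimum of 20 RNA reads. Intervals are exact Clopper-Pearson intervals at 95%, and a count of 0 carries a limit of 3 counts. Counting was tested on simulated data. The members and gene lists were chosen with earlier results of these data known. The promoter comparison and the nearest-gene lookup were chosen after values were seen. Named genes were those with protein-changing calls (at most 20 by depth), the 12 deepest exonic ones, those with unlike genotypes and the 6 with most exome calls. Others named were singled out after their values were seen. Alternatives were other read minimums, coding or all positions, the median of a gene, substitutions only, missense only and Krtap, Krtcap and Krtdap left out. Not every call that is counted is reported here singly.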

Additional observations from a re-analysis of the deposited data

How the results depend on the processing

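No paired analysis was possible because each result is a count or share in 1 RNA and 1 exome library, with no test. Of 19 alternatives, 14 stayed within counting error. The heterozygous share of member exome calls, 82.1% as reported, was 92.1% at coding positions. It was 86.8% without Serpinb2 and Serpinb8 and 85.7% with positions between genes left out, both chosen after seeing the data. The share of protein-changing calls, 41.7% as reported, was 31.9% with missense calls alone, a smaller class by construction. Unlike genotypes, 3 of 6 positions as reported, were 0.0% of the 3 coding positions, all in Serpinb8. The share of member genes read in RNA ranged from 1.39% to 3.19%, and the median depth was 0 reads throughout. Depth limits all of these: a gene counts only where its exons carry a variant, and 28 member genes had no exonic exome position.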

Other observations

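Downstream of Lce1h, RNA-only A-to-G calls stood in runs: 8 calls within 24 bases at 9 or 10 reads (chr3:92760302 to chr3:92760325), and 3 within 10 bases at 15 reads. Of the member substitutions called in RNA alone, 27.6% were A to G, against 17.7% over the whole table. The strand of the RNA was not used, and A to G and T to C together were 39.3% in members (interval 31.7 to 47.2) and 35.4% in the whole table, which lies within that interval. Member RNA-only calls were homozygous in 79.5% and exonic in 0.913% of cases, against 61.6% and 7.61% in the whole table. Between Krtap20-2 and Krtap21-1 on chromosome 16, 58 exome calls were listed, of which 50 were heterozygous, and none had an RNA read.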
